A study of Mus musculus with 6 samples.

Results

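The small leucine-rich proteoglycans are secreted proteins of the extracellular matrix, and 9 of them were examined here in muscle lacking TFEB, the transcription factor that drives lysosomal and autophagy genes. The members were *Fmod* (fibromodulin), *Kera* (keratocan), *Omd* (osteomodulin), *Prelp* and *Aspn* (asporin), taken as tendon-rich, and *Dcn* (decorin), *Bgn* (biglycan), *Lum* (lumican) and *Ogn* (osteoglycin, also called mimecan), taken as interstitial. A probe set, a group of short probes read out as 1 value, was kept where the platform annotation gave it a single gene symbol and that symbol was a member. This gave 19 of the 22626 probe sets tested and 9 of the 12393 genes with a probe set of their own, and 0 members lacked a probe set. The family was chosen by name with the low *Fmod* values and the *Dcn* values of these same arrays known, so the difference between the groups is described for the members without a test, and it supports nothing about the family.

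The 2 groups were TFEB KO muscle from 3 mice and WT muscle from 3 mice, all C57BL/6 and 1 month old, with 1 array per mouse. The TFEB KO mice carried floxed *Tcfeb* (the older symbol of *Tfeb*) and MLC1f-Cre, a Cre recombinase under a myosin light chain promoter. The study calls the deletion muscle-specific and checked it by quantitative PCR in several tissues. In which cells of the muscle the deletion occurred, and which cells make these proteoglycans, was not tested here. The sources used here name the tissue only as muscle, not which muscle, and do not say which alleles the WT mice carried. Each value is a log2 intensity from robust multi-array averaging (RMA), so a difference of 1 is a doubling or a halving. Values are compared for the same probe set across arrays and not between probe sets.

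The core protein of this family is a curved stack of leucine-rich repeats that binds collagen fibrils and carries sulfated sugar chains. Through that binding the proteins limit how fibrils grow in width and fuse, and several of them also bind growth factors such as TGF-beta. Fibromodulin, lumican, keratocan, PRELP and osteomodulin form class II of the family, decorin, biglycan and asporin class I, and osteoglycin belongs to class III. In muscle the proteins lie in the connective tissue sheaths around fibers and in the tendon and its insertion, where fibromodulin and lumican bind the same region of type I collagen.

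Several of the genes lie side by side in the mouse genome. In the RefSeq annotation of coding genes, *Optc*, *Prelp* and *Fmod* follow each other on chromosome 1, *Dcn*, *Lum*, *Kera* and *Epyc* on chromosome 10, and *Ecm2*, *Aspn*, *Omd* and *Ogn* on chromosome 13, while *Bgn* is on chromosome X. Position and direction did not go together throughout. *Fmod* was lower in TFEB KO muscle, and *Prelp* beside it was nearly level on its brighter probe set (log2 fold change 0.09) and at -0.28 on the other. *Kera* was lower while *Lum* beside it averaged higher, and the neighbours *Aspn*, *Omd* and *Ogn* all averaged higher.

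TFEB binds E-box-like sites, and the promoters were therefore searched. RefSeq promoters (mouse GRCm38.p6, windows of 300 bases that begin 250 bases before the start) were matched for 7 of the 9 members, all but *Dcn* and *Lum*. Of these 7, 0 held the E-box CACGTG, against 7.15% of all 32851 promoters, and 0 held GTCACGTGAC, the palindrome of the CLEAR element through which TFEB is known to act, against 0.326%. The broader CANNTG, which contains the other motifs, stood in 5 of 7, against 72.3% of all promoters. All 3 motifs read the same on both strands. The matches are descriptions of these windows, and no match says only that the letters are not in them. The 250 bases upstream of the start are printed for *Fmod* (chr1:134037004-134037253) and *Kera* (chr10:97606955-97607204), the members with the lowest values in TFEB KO muscle relative to WT, and for *Aspn* (chr13:49544193-49544442), the member with the highest, all on the plus strand of GRCm38.p6 and with CANNTG in capitals.
Fmod: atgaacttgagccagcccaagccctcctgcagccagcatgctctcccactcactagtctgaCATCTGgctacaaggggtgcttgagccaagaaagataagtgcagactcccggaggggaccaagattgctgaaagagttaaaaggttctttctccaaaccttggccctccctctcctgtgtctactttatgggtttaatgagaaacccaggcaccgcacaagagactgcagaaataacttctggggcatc
Kera: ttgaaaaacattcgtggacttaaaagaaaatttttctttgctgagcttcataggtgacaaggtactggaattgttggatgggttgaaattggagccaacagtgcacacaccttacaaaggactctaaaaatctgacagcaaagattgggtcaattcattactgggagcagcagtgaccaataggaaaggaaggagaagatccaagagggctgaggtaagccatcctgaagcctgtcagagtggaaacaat
Aspn: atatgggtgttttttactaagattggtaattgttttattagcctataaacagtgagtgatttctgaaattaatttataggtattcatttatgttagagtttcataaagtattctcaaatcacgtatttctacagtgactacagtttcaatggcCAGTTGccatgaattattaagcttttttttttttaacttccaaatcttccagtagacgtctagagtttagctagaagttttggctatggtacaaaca
The *Fmod* stretch holds 1 such match, CATCTG, the *Aspn* stretch 1, CAGTTG, and the *Kera* stretch 0.

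*Tfeb* itself was examined first. Its probe set (1422566_at) read 7.10, 7.23 and 7.04 in TFEB KO muscle, against 8.61, 8.55 and 8.96 in WT muscle, a log2 fold change of -1.58 (SE 0.13, limma adjusted p = 0.00787), so the labels and the targeted gene agreed in all 6 arrays. No source used here says whether its probes fall within the deletion. The 14 markers of skeletal fibers had a mean level of 13.97 to 14.08 in TFEB KO muscle and 14.19 to 14.23 in WT muscle, and 0 passed the threshold in either direction. The ranges do not overlap, while the median log2 fold change was -0.02, with 8 of 14 below 0. *Myh7* (-1.40, limma adjusted p = 0.0688) and *Myh2* (-0.57, adjusted p = 0.0977) were lower in every TFEB KO array. Many of the other markers read close to 14.93, the highest value in the data. Arrays correlated at 0.9920 to 0.9967 within groups and at 0.9889 to 0.9934 between them.

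*Fmod* was the member with the largest difference, and it fell. Fibromodulin is a class II member that is abundant in tendon and needed there for normal fibril width. Its brightest probe set (1456084_x_at) read 9.51, 9.24 and 9.57 in TFEB KO muscle, against 10.63, 10.59 and 11.22 in WT muscle. These average 9.44 ± 0.18 in TFEB KO muscle and 10.81 ± 0.36 in WT muscle (SD, n = 3 each), a log2 fold change of -1.37 (SE 0.18), or 2.58-fold lower. The highest TFEB KO array lay more than 1 log2 unit below the lowest WT array. Of its 6 probe sets 5 have the suffix _x_at, given to probe sets with probes that can also match other transcripts. The 1 without it (1415939_at) gave 9.24, 9.29 and 9.21 in TFEB KO muscle, against 10.53, 10.54 and 10.98 in WT muscle, a log2 fold change of -1.43 (SE 0.13). The remaining 4 read 7.25 to 8.25 in TFEB KO muscle and 8.23 to 9.77 in WT muscle, with log2 fold changes of -1.25 to -0.98. The groups overlapped in 0 of the 6. The brightest probe set was not past the threshold without TFEB KO replicate 2 or without WT replicate 1. WT replicate 3 was the highest array in each of the 6.

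*Kera* pointed the same way. Keratocan is a class II member best known from the cornea, where it carries keratan sulfate, and it is also found in tendon. Its single probe set (1418063_at) read 7.96, 7.25 and 7.33 in TFEB KO muscle, against 8.44, 8.27 and 8.60 in WT muscle. The log2 fold change was -0.92 (SE 0.19), which is 1.89-fold lower. Every TFEB KO array lay below every WT array, TFEB KO replicate 1 lay closest to the WT arrays, and *Kera* did not pass the threshold used for all probe sets. Without that replicate it did, with a log2 fold change of -1.15.

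The 3 other members taken as tendon-rich did not follow *Fmod* and *Kera*. *Prelp*, a class II member that links matrix collagen to basement membrane proteoglycans, read 8.17, 8.15 and 8.08 in TFEB KO muscle on its brighter probe set (1416321_s_at), against 8.11, 8.08 and 7.94 in WT muscle, a log2 fold change of 0.09 (SE 0.09). Its dimmer probe set (1416322_at) read 6.21, 5.54 and 5.63 in TFEB KO muscle, against 6.24, 6.02 and 5.96 in WT muscle, a log2 fold change of -0.28 (SE 0.18). The groups overlapped on both, and the probe sets differed in sign. *Omd*, a class II member of bone and tendon (1418745_at), read 6.40, 6.98 and 6.70 in TFEB KO muscle, against 6.63, 6.51 and 6.15 in WT muscle, a log2 fold change of 0.26 (SE 0.17). Here too the groups overlapped.

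*Aspn* was higher in every TFEB KO array. Asporin is a class I member with a run of aspartate residues that binds collagen and TGF-beta. Its probe set 1416652_at read 8.73, 7.93 and 8.03 in TFEB KO muscle, against 7.81, 7.72 and 7.60 in WT muscle, a log2 fold change of 0.52 (SE 0.20). On 1448421_s_at the values were 8.13, 7.25 and 7.79 in TFEB KO muscle, against 7.20, 6.97 and 7.20 in WT muscle, a log2 fold change of 0.60 (SE 0.20). Neither probe set passed the threshold, and TFEB KO replicate 1 was the highest array on both. Without that replicate the log2 fold change of 1416652_at was 0.27.

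**Figure D1:**
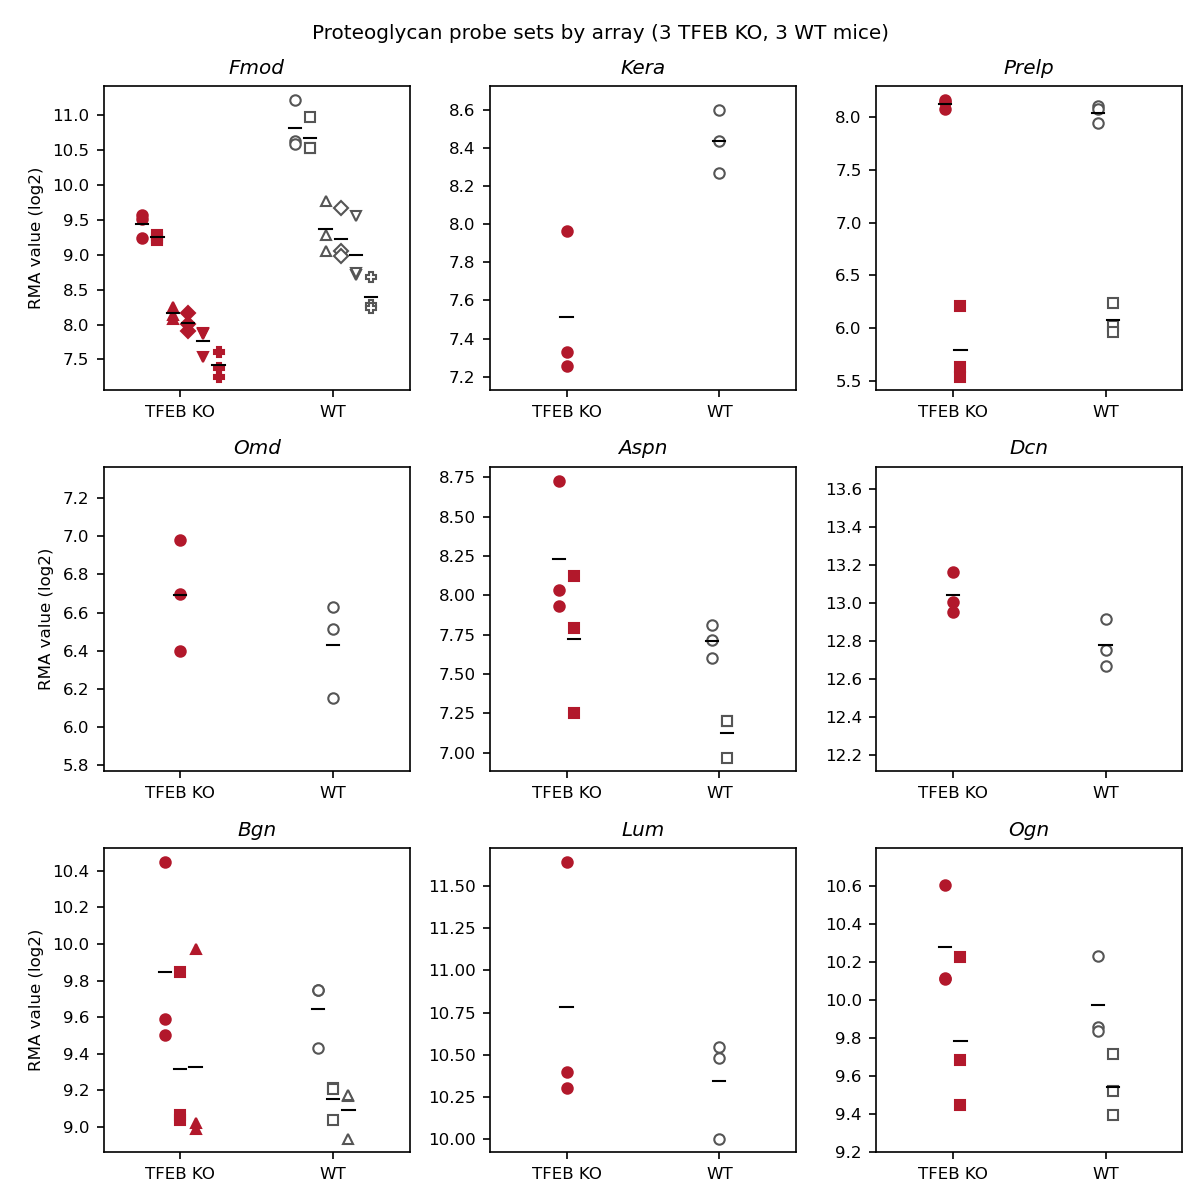
Log2 RMA values of all 19 probe sets of the 9 members in 3 TFEB KO arrays (filled, left in each panel) and 3 WT arrays (open, right), with 1 point per mouse, 1 marker shape per probe set from the brightest on the left, and a bar at each group mean; each panel has its own scale. On the brightest *Fmod* probe set the TFEB KO points (9.24 to 9.57) lie below the WT points (10.59 to 11.22), and *Kera* shows the same order, while each *Aspn* probe set and *Dcn* show the opposite one.

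The interstitial members averaged higher in TFEB KO muscle and did not pass the threshold. *Dcn*, the class I member that coats fibrils and binds TGF-beta (1449368_at), read 13.16, 12.95 and 13.00 in TFEB KO muscle, against 12.92, 12.75 and 12.67 in WT muscle, a log2 fold change of 0.26 (SE 0.11). The groups did not overlap, but the lowest TFEB KO array stood only just above the highest WT array. *Ogn*, the class III member (1419663_at), read 10.60, 10.11 and 10.11 in TFEB KO muscle, against 10.23, 9.86 and 9.84 in WT muscle, a log2 fold change of 0.30 (SE 0.17), and its other probe set (10.22, 9.68 and 9.45 in TFEB KO muscle, against 9.71, 9.52 and 9.39 in WT muscle) gave 0.24 (SE 0.19). The groups of *Ogn* overlapped on both.

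*Lum* and *Bgn* turned on a single array. *Lum*, the class II member that limits fibril width (1423607_at), read 11.65, 10.40 and 10.30 in TFEB KO muscle, against 10.55, 10.48 and 10.002 in WT muscle, a log2 fold change of 0.44 (SE 0.33). *Bgn*, the class I member closest to decorin (1416405_at), read 10.45, 9.59 and 9.50 in TFEB KO muscle, against 9.75, 9.75 and 9.43 in WT muscle, a log2 fold change of 0.21 (SE 0.24). Its other probe sets gave 0.16 and 0.23, with the same array on top. In both genes TFEB KO replicate 1 stood above all other arrays and the other TFEB KO arrays lay among the WT arrays. Without that replicate, the log2 fold change of *Lum* was 0.01 and that of *Bgn* was -0.10, while *Dcn* kept 0.20 and *Ogn* 0.14.

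The same array was high for the interstitial members and for *Aspn*, which was taken as tendon-rich. TFEB KO replicate 1 deviated from the WT mean by 1.30 for *Lum*, 1.02 for *Aspn*, 0.81 for *Bgn*, 0.63 for *Ogn* and 0.38 for *Dcn*. Of 7 measured adipocyte markers 6 were highest there as well, and the exception, *Pnpla2*, a triglyceride lipase, was lowest there. Their median deviation from the WT mean was 1.03 in TFEB KO replicate 1, against -0.03 and -0.05 in the other TFEB KO arrays and -0.22 to 0.28 in WT muscle. The interstitial fibroblast list gave 0.45, 0.08 and 0.07 in TFEB KO muscle and 0.12, 0.01 and -0.10 in WT muscle over 23 of 24 genes, with a mean level over the list of 8.07 to 8.47 in TFEB KO muscle and 7.81 to 8.03 in WT muscle. TFEB KO replicate 1 was also the highest array for 14 of 17 macrophage markers, 10 of 18 fibrillar collagens and partners and 7 of 11 proteases. It was the lowest for 9 of 12 endothelial and 6 of 12 tendon cell markers. The part of these cell types in the values of the members was not tested. In bulk muscle fewer cells of a type and less RNA per cell cannot be told apart.

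**Figure D2:**
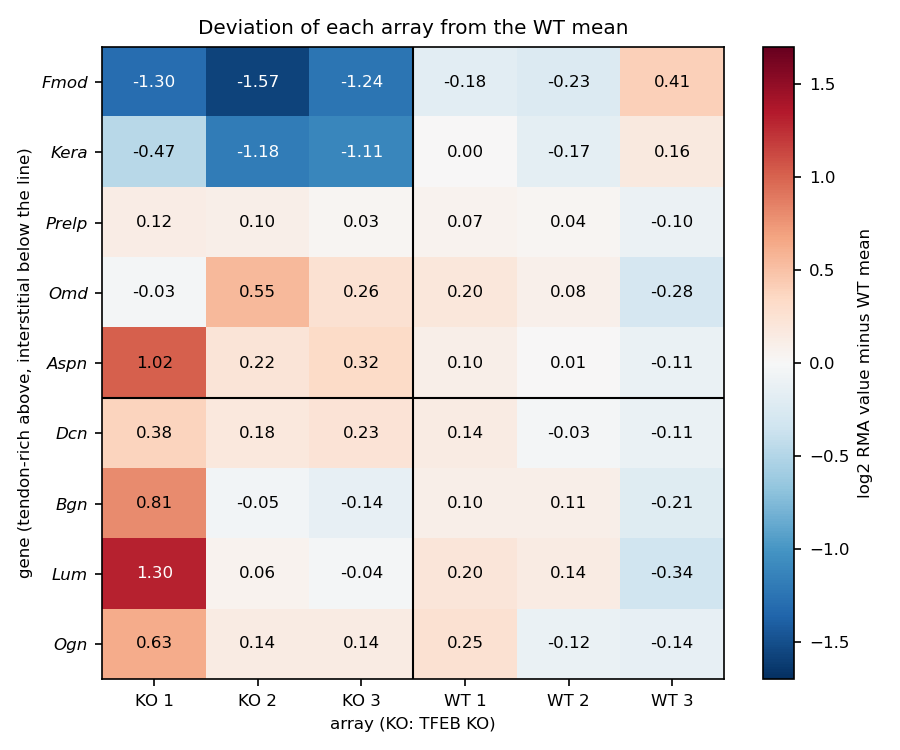
Deviation of each member's brightest probe set from its WT mean, in log2 units, printed and coloured for the 3 TFEB KO arrays (left) and the 3 WT arrays (right). The TFEB KO replicate 1 value reaches 1.30 for *Lum*, and *Fmod* and *Kera* are below 0 in all TFEB KO arrays.

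Over all members, 6 of 19 probe sets were past the threshold and lower in TFEB KO muscle, all of them *Fmod*, against a background of 0.844% of 22626 probe sets called lower. A further 0 of 19 were past it and higher, against a background of 0.751%. The groups were without overlap and lower in TFEB KO muscle in 7 probe sets (the 6 of *Fmod* and that of *Kera*, background 13.3%), and without overlap and higher in 3 (2 of *Aspn* and that of *Dcn*, background 9.77%), and they overlapped in the other 9. Counted per gene on the brightest probe set, 1 of 9 was called lower (background 0.702%) and 0 of 9 higher (background 0.871%), and 7 of 9 had a log2 fold change above 0. Since the family was chosen with this contrast known, nothing is read from the shares. The 6 probe sets of *Fmod* ranked 9 to 43 of 22626 from the most negative log2 fold change, and all are annotated to 1 gene, so they count as 1 gene.

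Tendon-rich members were compared with interstitial members as medians of gene values. The median log2 fold change was 0.09 over the 5 tendon-rich members, whose values ran from -1.37 to 0.52, and 0.28 over the 4 interstitial members, whose values ran from 0.21 to 0.44. The difference between the medians was -0.20, smaller than 0.31, the SD within groups of this difference taken array by array. Array by array it was -0.75, 0.01 and -0.02 in TFEB KO muscle, against -0.11, -0.03 and 0.07 in WT muscle. That SD came mostly from TFEB KO replicate 1, and it describes single arrays, not the error of the -0.20. The difference between the medians was -0.01 without TFEB KO replicate 1, and -0.36 when each gene was given by the mean of all its probe sets. The tendon-rich group thus had no common direction. With *Fmod* and *Kera* alone as tendon-rich the median was -1.15 and the difference -1.43, a choice of members that uses the values described. By class, the medians were 0.26 for class I, 0.09 for class II and 0.30 for *Ogn*, the only class III member, beside -0.01 for all 12393 genes.

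Members were also set against each other within each array, as deviations from their own WT means. The deviation of *Fmod* minus that of *Dcn* was -1.68, -1.75 and -1.47 in TFEB KO muscle, against -0.32, -0.20 and 0.52 in WT muscle. *Kera* minus *Lum* gave -1.78, -1.24 and -1.07 in TFEB KO muscle, against -0.20, -0.30 and 0.50 in WT muscle. Both were lower in every TFEB KO array than in every WT array, an order that follows from how the pairs were chosen. Deviations of the interstitial members from their group means moved together, with r of 0.77 to 1.00 over the 6 pairs of genes and 6 arrays. Of the members taken as tendon-rich, *Aspn* moved with them at r of 0.80 to 0.97, *Prelp* at 0.60 to 0.71 and *Kera* at 0.50 to 0.74. *Fmod* and *Omd* had r below 0 with each of them. TFEB KO replicate 1 was the highest array for every interstitial member. These r are descriptions of genes measured in the same arrays.

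**Figure D3:**
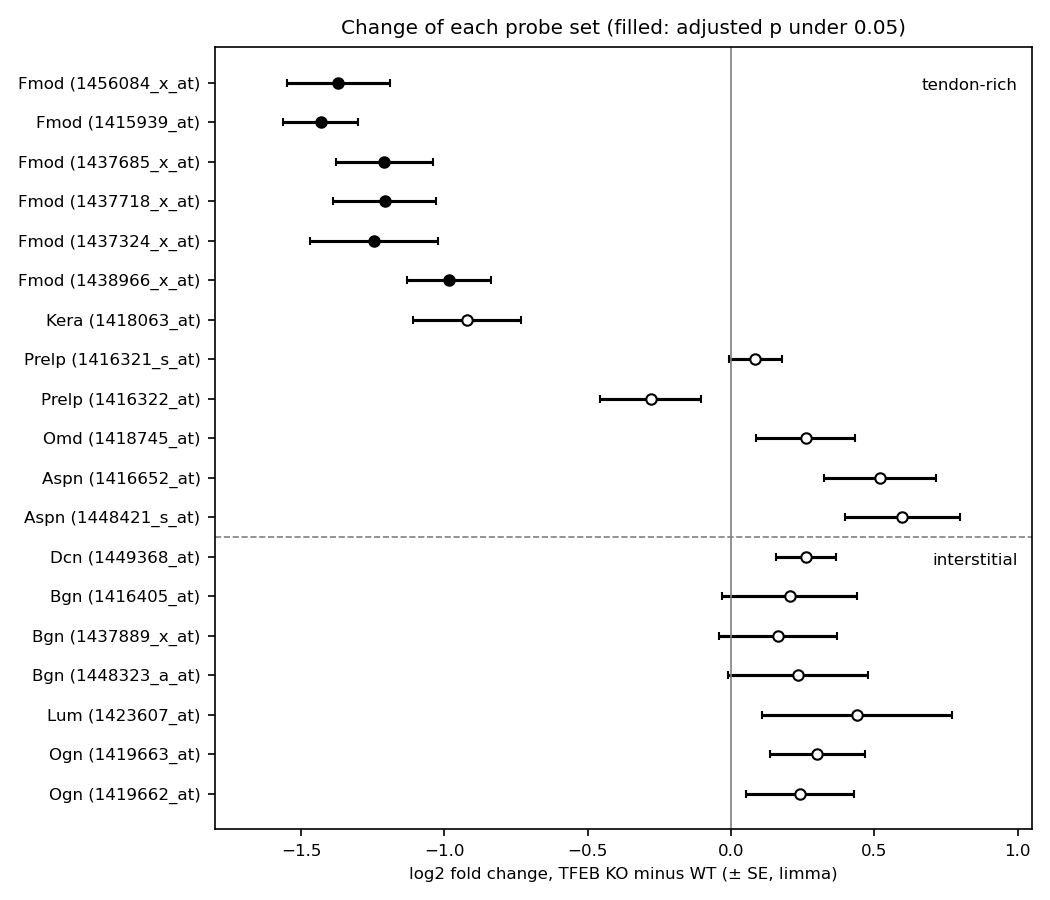
Log2 fold change (TFEB KO minus WT) of each of the 19 member probe sets, with bars of ± 1 SE from limma (3 arrays per group) and filled points where the adjusted p was under 0.05. The 6 *Fmod* probe sets lie between -1.43 and -0.98, *Kera* at -0.92 and all interstitial probe sets above 0.

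The genes whose pattern was most like that of *Fmod* over the 6 arrays were *Prkdc* (r = 0.998), *Lrrc8c* (0.996), *Cyp4b1* (0.994), *Myhas* (0.994) and *Tle5* (0.993), and 85 genes had r above 0.95. Of these 5, *Lrrc8c* fell, with a log2 fold change of -0.68 (limma adjusted p = 0.0424). Those most like *Dcn* were *Fxyd5* (0.994), *Adam8* (0.992), *Serping1* (0.991), *Ms4a6b* (0.990) and *Cd68* (0.989), and 87 genes had r above 0.95. *Ms4a6b*, a membrane protein of macrophages and other leukocytes, had a log2 fold change of 1.34 (adjusted p = 0.0554) and *Cd68*, a lysosomal protein of macrophages, 1.01 (adjusted p = 0.0726). With the difference between the groups removed, as deviations from the group means, r was 0.933 to 0.980 for the 5 genes most like *Fmod* and 0.975 to 0.991 for the 5 most like *Dcn*. These are descriptions over 6 arrays, of genes picked for their r.

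Relatives of the family outside the 9 members gave 0 calls. Of 9 other small leucine-rich proteoglycans 3 had a probe set of their own, and 0 passed. *Chad* (chondroadherin), a cell-binding member of cartilage and tendon, read 5.85, 6.59 and 6.68 in TFEB KO muscle, against 7.33, 7.62 and 8.20 in WT muscle, a log2 fold change of -1.34 (SE 0.27, adjusted p = 0.0506), with no overlap. *Optc*, next to *Prelp* in the genome, had -0.14 (adjusted p = 0.549), and its values of 4.19 to 4.33 in TFEB KO muscle and 4.33 to 4.60 in WT muscle were dim. Among 19 other matrix proteoglycans 0 passed in either direction and the median was -0.04. *Gpc4* and *Gpc3*, heparan sulfate proteoglycans of the cell surface, had -0.45 (adjusted p = 0.0673) and -0.47 (adjusted p = 0.127).

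Fibrillar collagens and the genes that act with them, the partners of these proteoglycans, gave 1 of 18 measured genes lower and 0 higher, with a median of -0.11. TFEB KO replicate 1 stood apart here too: the median deviation of the list was 0.40, -0.28 and -0.48 in TFEB KO muscle, against 0.11, 0.10 and -0.18 in WT muscle. The 1 was *Col11a2*, a chain of the type XI collagen that seeds thin fibrils, at 5.10, 4.96 and 5.09 in TFEB KO muscle, against 5.86, 5.65 and 5.84 in WT muscle, a log2 fold change of -0.73 (SE 0.10, limma adjusted p = 0.020). *Col1a1* and *Col1a2*, the chains of type I collagen to which fibromodulin and lumican bind, had -0.82 (adjusted p = 0.187) and -0.74 (adjusted p = 0.143). Both were picked for mention with their values in view. Of 16 measured genes for collagen crosslinking and processing 0 passed, with a median of 0.08, and *Lox*, the enzyme whose crosslinks fibromodulin is known to guide, had 0.72 (adjusted p = 0.213) and *Plod2*, a lysyl hydroxylase, 0.32 (adjusted p = 0.272).

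The enzymes that build the sugar chains gave 0 calls. Of 15 measured genes for chondroitin and dermatan sulfate, the chains of decorin and biglycan, 0 passed and the median was 0.05. *Fam20b*, the kinase that primes the linkage sugar, had 0.40 (adjusted p = 0.0793) and *Csgalnact2*, a starter enzyme of the chain, 0.52 (adjusted p = 0.103). Of 11 measured genes for keratan sulfate, the chain of fibromodulin, lumican and keratocan, 0 passed and the median was -0.08. *St3gal2*, a sialyltransferase, had -0.39 (adjusted p = 0.108) and *B4galt1*, a galactosyltransferase, 0.30 (adjusted p = 0.173).

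TGF-beta ligands, receptors and targets, which these proteoglycans bind or answer to, gave 0 of 19 calls and a median of 0.08. *Tgfbr1*, a TGF-beta receptor, had 0.46 (adjusted p = 0.0638) and *Ltbp1*, which holds the latent ligand in the matrix, 0.43 (adjusted p = 0.0996). Proteases known to cut the family gave 0 of 11 calls, 1 value below 0 and a median of 0.15. *Mmp3* (stromelysin) read 6.68, 5.98 and 5.98 in TFEB KO muscle, against 5.50, 5.20 and 5.12 in WT muscle, a log2 fold change of 0.94 (adjusted p = 0.0608), and *Mmp14*, a membrane-bound collagenase, had 0.48 (adjusted p = 0.189).

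Markers of tendon cells leaned the way of *Fmod* and *Kera*, and so did markers of several other cell types. Of 12 measured of 15 in the list, 2 fell, 0 rose and 11 had values below 0, with a median of -0.49. *Comp*, a matrix protein that assembles collagen, read 7.22, 7.24 and 7.44 in TFEB KO muscle, against 8.31, 8.41 and 8.38 in WT muscle (adjusted p = 0.00908), and *Tnmd* (tenomodulin), a membrane protein of tenocytes, read 8.67, 8.63 and 8.50 in TFEB KO muscle, against 9.08, 9.16 and 9.03 in WT muscle (adjusted p = 0.0462). *Scx*, the transcription factor that defines tendon cells, read 5.65 to 6.02 in TFEB KO muscle and 5.66 to 6.00 in WT muscle (log2 fold change -0.02, adjusted p = 0.968), and *Thbs4*, a matrix protein of tendon, had -0.01 (adjusted p = 0.987). The median deviation of the list was -0.67, -0.38 and -0.62 in TFEB KO muscle and 0.02, -0.01 and -0.08 in WT muscle, and its mean level was 6.67 to 6.88 in TFEB KO muscle and 7.25 to 7.36 in WT muscle. The list shares *Chad* with the other small leucine-rich proteoglycans and *Col11a1* with the fibrillar collagens. Endothelial markers had a median of -0.53, with 12 of 12 below 0, 5 called lower and 0 higher. Smooth muscle and pericyte markers had -0.36, with 8 of 10 below 0 and 2 called lower, and Schwann and myelin markers -0.34, with 6 of 6 below 0 and 1 called lower. Cartilage and bone markers, dim at a mean level of 4.33 to 4.48 in TFEB KO muscle, had -0.10, with 9 of 10 below 0. The 1 of them called lower was *Col9a1* (log2 fold change -1.12, limma adjusted p = 0.0174). The mean level of the endothelial list was 7.30 to 7.51 in TFEB KO muscle and 7.87 to 8.05 in WT muscle. The part of any of these cell types in the *Fmod* and *Kera* values was not tested.

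Fibroblast and macrophage markers leaned the way of *Dcn*. Of 23 measured interstitial fibroblast markers 1 rose, *Cxcl14* (log2 fold change 1.03, SE 0.09, limma adjusted p = 0.00863), a secreted chemokine, and 0 fell, with a median of 0.19. The lean of the list median came largely from TFEB KO replicate 1, the highest array for 19 of the 23. In the other TFEB KO arrays the median deviation was 0.08 and 0.07, within the WT values of -0.10 to 0.12. The median hides single markers. *Cxcl14* read 7.91, 7.89 and 7.78 in TFEB KO muscle, against 6.79, 6.85 and 6.83 in WT muscle. Several other markers were also higher in every TFEB KO array than in every WT array, while 4 of the 23 had log2 fold changes below 0. The mean level of the list did not overlap, at 8.07 to 8.47 in TFEB KO muscle and 7.81 to 8.03 in WT muscle. Of 17 macrophage markers 9 rose and 0 fell, with a median of 1.07. *Ctss*, a lysosomal protease, had 2.07 (adjusted p = 0.0142), *Mpeg1* 1.75 (adjusted p = 0.0174), *Cd163*, a scavenger receptor, 1.09 (adjusted p = 0.0277) and *Fcgr3*, an Fc receptor, 1.07 (adjusted p = 0.0294). The mean level of the macrophage list was 8.02 to 8.55 in TFEB KO muscle and 6.78 to 7.43 in WT muscle, without overlap. Its median deviation was 1.49, 0.86 and 0.89 in TFEB KO muscle, against 0.34, 0.06 and -0.38 in WT muscle. Its part in the values of the interstitial members was not tested.

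**Figure D4:**
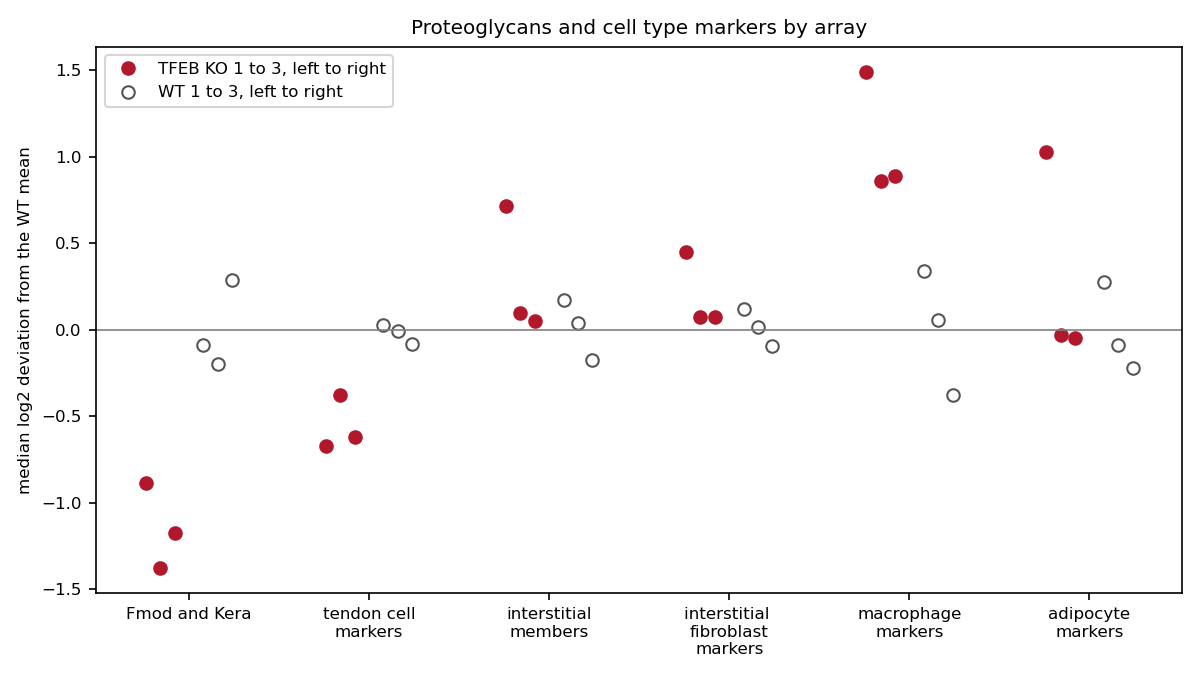
Median deviation from the WT mean, in log2 units, of *Fmod* and *Kera*, the interstitial members and the tendon cell, interstitial fibroblast, macrophage and adipocyte marker lists, for the 3 TFEB KO arrays (filled, left) and the 3 WT arrays (open, right), replicates 1 to 3 from left to right. The tendon cell list is at -0.67 to -0.38 in TFEB KO muscle and near 0 in WT muscle, and the macrophage list at 0.86 to 1.49 in TFEB KO muscle and -0.38 to 0.34 in WT muscle.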

How the data were processed

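Gene expression was measured in muscle of 3 TFEB KO and 3 WT mice with 1 Affymetrix array per mouse. The values deposited by the authors are log2 RMA intensities per probe set and array, made with affy. Neither its version nor its settings are stated in the sources used here. The values ran from 2.54 to 14.93, without counts, so the number of arrays limits the precision. RMA normalizes between arrays, which can hide a shift shared by most genes.

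The table has 22690 probe sets. After removal of 64 array controls, 22626 were tested. Of these, 20380 name 1 gene, 691 several and 1555 none, and only the first kind was named. Of the 20380, 20351 were found in the RefSeq gene table by Entrez ID, which changed 0 symbols. A gene is given by its brightest probe set unless another is stated. Groups were compared by limma 3.58.1 (lmFit and eBayes; two-sided; R 4.3.3), and p-values were adjusted over all probe sets by Benjamini-Hochberg, at a threshold of 0.05. The fit was tested on simulated data. Tables used pandas 2.3.3 and NumPy 2.4.6 under Python 3.11.15, and plots matplotlib 3.10.9.

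Named genes were every member, the 5 genes most like *Fmod*, the 5 most like *Dcn*, and from each list described up to 4 genes past the threshold with the smallest p, or the 2 with the smallest p where none passed, for the lists described gene by gene. *Col1a1*, *Col1a2*, *Scx*, *Thbs4* and *Pnpla2* fall outside this rule and were chosen with their values in view. The members and lists were chosen with earlier results of these data known. Endothelial (0 of 12 higher, 5 lower), smooth muscle (0 of 10, 2), Schwann (0 of 6, 1), adipocyte (0 of 7, 0), cartilage and bone (0 of 10, 1), skeletal fiber (0 of 14, 0) and erythrocyte (0 of 3, 0) markers were also counted. Alternatives were array weights, another normalization, a filter at log2 5, a fold minimum of 1.5, the mean of all probe sets, the methods' t-test (named in the study's general statistics; the test its authors used on the arrays is not stated in the sources used here), a replicate block and leaving out each array.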

Additional observations from a re-analysis of the deposited data

How the results depend on the processing

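The log2 fold changes of the members kept their sign in all but 2 of 131 pairs of a member and an alternative. The exceptions were *Prelp*, at -0.10 with the mean of all its probe sets, and *Bgn*, at -0.10 without TFEB KO replicate 1. Over the alternatives that leave out 1 array *Bgn* ran from -0.10 to 0.38. The t-tests, the replicate block, the trended and robust moderation and the filter at log2 5 leave each log2 fold change unchanged. In those alternatives the sign was fixed in advance. *Fmod* ran from -1.48 to -1.16 and *Kera* from -1.15 to -0.79 over all alternatives. The 6 member probe sets past the threshold and lower became 0 with the methods' t-test once adjusted by Benjamini-Hochberg, which calls 1 of 22626 probe sets, against 7 member probe sets without adjustment, and 1 to 6 when each array was left out, 1 without TFEB KO replicate 2 or WT replicate 1, 2 without TFEB KO replicate 3 and 3 without WT replicate 2. Over all probe sets 361 were called, and 21 to 438 with 1 array left out, so 5 of 6 omissions lowered the count for all genes too. *Kera* passed the threshold with array weights, with trended and robust moderation, with the unadjusted t-test and without TFEB KO replicate 1. The tendon-rich minus interstitial difference of -0.20 became -1.43 with *Fmod* and *Kera* alone as tendon-rich and -0.36 where a gene's probe sets were averaged, and ran from -0.28 to -0.01 with 1 array left out. With a replicate block 6 member probe sets stayed lower and 297 were called over all. Same-numbered TFEB KO and WT arrays correlated in their deviations at 0.09, 0.05 and 0.27, against -0.25 to 0.17 for the other pairs. With 3 arrays per group these values cannot tell whether the numbers pair the mice. With 3 arrays per group and no counts, the differences of *Dcn* (0.26, SE 0.11) and *Lum* (0.44, SE 0.33) did not pass the threshold. This does not show that the groups are alike. Spread counted as well as size, since *Tnmd* passed with -0.49 (SE 0.09).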
